A study of Homo sapiens with 16 samples.

Results

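The ZNF genes of chromosome 19 are here the genes with a protein-coding (NM) transcript on that chromosome in the annotation the authors deposited whose symbol is ZNF followed by a number. The rule uses symbol and position and no measurement of binding. It found 247 genes among 1388 protein-coding genes of chromosome 19 and 19343 of the standard chromosomes. They were set beside the other 1141 genes of chromosome 19 and beside 257 genes with the same symbol pattern on other chromosomes. The 1141 hold every other symbol, so any zinc-finger genes named otherwise, also in the same clusters, count among them. The symbols ZNF559-ZNF177, ZNF816-ZNF321P and ZNF765-ZNF761 name read-through transcripts of neighbouring genes and were counted as genes of their own.

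Most of these genes encode proteins with tandem arrays of C2H2 zinc fingers, small DNA-binding modules, and many of the proteins also carry a KRAB domain. The KRAB domain recruits the corepressor TRIM28, which brings in the histone methyltransferase SETDB1 and heterochromatin protein, and many KRAB zinc-finger proteins silence retrotransposons. The genes lie in clusters of related copies, and in many cell types their bodies, above all the 3′ exons that encode the fingers, carry the repressive histone mark H3K9me3. BCL11A and ZBTB7A, the proteins whose binding was measured, are themselves zinc-finger repressors, known in red cell precursors for silencing the fetal γ-globin genes.

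Binding was located by chromatin immunoprecipitation with sequencing (ChIP-seq) in 16 libraries, 8 of them ChIP and 8 of them controls. BCL11A was precipitated through a V5 tag in HUDEP-2, an immortalised human erythroid progenitor line, which carried the inducible BCL11A-ER-V5 fusion and received 4-hydroxytamoxifen at 1e-07 M for 24 h (2 ChIP and 2 control libraries). ZBTB7A was precipitated with antibodies to the protein in K562, a human erythroleukaemia line (4 ChIP and 4 control libraries). It was also precipitated in HUDEP-2 cells that all lack the Gγ-globin gene (ΔGγ), with a 195C>G change in the γ-globin promoter or with the WT promoter, with 1 ChIP and 1 control library each. Whether the 195C>G and WT cells are single clones is not stated in the labels, and the controls are called input in the sample names but carry an IgG antibody label. The deposited lists held 12911 regions for BCL11A, 17331 for K562, 18784 for 195C>G and 36435 for WT. Of these, 1201, 1578, 1319 and 3988 lay on chromosome 19. Each list pools its replicates or comes from 1 library and no file gives read counts, so depth is unknown and no error between replicates can be given. No test was therefore made. Intervals are exact Clopper-Pearson 95% intervals over genes or regions, which cover counting error only and treat neighbouring genes as independent. Many of these genes are near copies of one another, and the labels do not state how reads that match several copies were treated.

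6 promoters are printed as examples of patterns in the results. Each is the RefSeq window of GRCh38.p14 from 250 bases before to 50 bases after the start, on the strand of the gene. Capitals mark GACCC or its reverse complement GGGTC, the core of the known ZBTB7A site. The known BCL11A core, TGACCA or TGGTCA, was searched in the same way and occurs in none of the 6. The cores are alike (both hold GACC), but a copy of one cannot overlap a copy of the other in a sequence. The 6 windows do not show how often the marked core goes with binding. ZNF180, a leading ZBTB7A promoter that is not printed, holds 0 copies. Among 87 ZNF windows of genes bound in no list 55.2% hold the core, against 66.7% of the 15 bound in all 4 lists. The first pair, ZNF526 and ZNF564, had among the strongest ZBTB7A promoter regions of these genes. They lie at chr19:42220062-42220361 (plus strand) and chr19:12551433-12551732 (minus strand).
ZNF526: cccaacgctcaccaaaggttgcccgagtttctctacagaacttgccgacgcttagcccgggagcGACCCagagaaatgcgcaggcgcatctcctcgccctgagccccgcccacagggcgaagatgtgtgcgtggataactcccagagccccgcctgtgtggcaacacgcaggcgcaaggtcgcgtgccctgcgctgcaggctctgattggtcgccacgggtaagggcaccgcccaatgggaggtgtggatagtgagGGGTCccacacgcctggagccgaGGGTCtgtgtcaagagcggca
ZNF564: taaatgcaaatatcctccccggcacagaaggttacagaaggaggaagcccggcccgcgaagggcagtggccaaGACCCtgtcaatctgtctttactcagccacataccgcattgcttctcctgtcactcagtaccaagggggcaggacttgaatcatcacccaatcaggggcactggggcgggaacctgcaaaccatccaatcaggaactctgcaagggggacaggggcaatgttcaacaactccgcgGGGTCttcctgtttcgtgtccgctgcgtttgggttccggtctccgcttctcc
ZNF787 at chr19:56121246-56121545 (minus strand) was bound in every list, and ZNF274 at chr19:58182811-58183110 (plus strand) had a strong BCL11A region.
ZNF787: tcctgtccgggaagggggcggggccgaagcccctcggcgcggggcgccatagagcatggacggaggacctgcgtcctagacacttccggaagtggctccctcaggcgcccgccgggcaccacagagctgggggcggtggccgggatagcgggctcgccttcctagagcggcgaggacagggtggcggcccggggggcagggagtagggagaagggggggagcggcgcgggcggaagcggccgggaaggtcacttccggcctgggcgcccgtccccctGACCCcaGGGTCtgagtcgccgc
ZNF274: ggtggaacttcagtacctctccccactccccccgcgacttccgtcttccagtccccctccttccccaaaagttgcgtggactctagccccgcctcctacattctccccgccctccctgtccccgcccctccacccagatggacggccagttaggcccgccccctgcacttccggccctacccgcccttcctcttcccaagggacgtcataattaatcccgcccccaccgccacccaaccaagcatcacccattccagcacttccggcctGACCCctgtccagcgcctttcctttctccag
ZNF554 at chr19:2819618-2819917 (plus strand) had a strong WT region without a 195C>G counterpart, and ZNF91 at chr19:23395422-23395721 (minus strand) was bound in no list.
ZNF554: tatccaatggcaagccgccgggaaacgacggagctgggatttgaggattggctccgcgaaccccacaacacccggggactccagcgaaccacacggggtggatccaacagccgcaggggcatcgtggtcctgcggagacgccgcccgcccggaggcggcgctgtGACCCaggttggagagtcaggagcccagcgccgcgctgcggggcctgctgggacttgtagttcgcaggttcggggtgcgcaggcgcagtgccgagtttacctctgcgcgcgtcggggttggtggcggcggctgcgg
ZNF91: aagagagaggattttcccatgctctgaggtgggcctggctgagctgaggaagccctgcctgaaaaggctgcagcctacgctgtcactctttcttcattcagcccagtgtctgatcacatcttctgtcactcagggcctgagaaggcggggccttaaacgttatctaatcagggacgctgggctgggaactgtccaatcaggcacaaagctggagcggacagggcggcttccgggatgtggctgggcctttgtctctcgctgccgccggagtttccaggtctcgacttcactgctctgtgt
A K562 region covered 202 of the 300 bases at ZNF526, a 195C>G region 111 and a WT region 261. At ZNF564, 270 bases were covered in K562, 277 in 195C>G and 243 in WT, against 36 in the BCL11A list. At ZNF274 the BCL11A region covered 126 bases, and no ZBTB7A region reached the window. At ZNF554 a K562 region covered all 300 bases and WT regions 295.

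The first comparison asked how often the promoters of ZNF genes were bound. A gene counted as bound when the summit of a region, or its midpoint where the list gives no summit, lay within 1 kb of an NM transcript start. Bound ZNF genes on chromosome 19 numbered 59 for BCL11A, 67 for ZBTB7A in K562, 36 in 195C>G and 115 in WT. The promoter share of ZNF genes was the lower one in all 4 lists when set beside the other genes of the chromosome. It was furthest below them in 195C>G, and for BCL11A and WT it was the higher one among the 218 ZNF genes with other genes in their 2 Mb, set beside those neighbours. That higher share rested on the stretch from 56 to 58 Mb, where 40 ZNF genes were set beside 16 others.

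For BCL11A the share was 23.9% of ZNF genes (18.7 to 29.7%), against 28.6% of the other chromosome 19 genes (26 to 31.3%) and 24.6% of all 18093 protein-coding genes outside chromosome 11. These intervals overlapped, and the ZNF share was close to that of all genes. In K562 the share was 27.1% (21.7 to 33.1%), against 41.5% of the others (38.7 to 44.5%) and 33.3% of all genes. In 195C>G it was 14.6% (10.4 to 19.6%), against 31.8% (29.1 to 34.6%) and 29.5%. Those intervals did not overlap. In WT it was 46.6% (40.2 to 53.0%), against 61.7% (58.8 to 64.5%) of the others and 45.3% of all genes. The WT share of ZNF genes thus lay near the share of all genes, and it was the other genes of chromosome 19 that lay above it.

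ZNF genes of other chromosomes were bound more often than those of chromosome 19 in every list. Their shares were 37.4% (96 of 257) for BCL11A, 42.0% (108) in K562, 40.5% (104) in 195C>G and 61.5% (158) in WT. The widest gap was in 195C>G, where the 34.4 to 46.7% interval of these genes lay wholly above that of the ZNF genes of chromosome 19.

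Bound ZNF promoters were not weak ones throughout. Ranks follow the authors' score or signal, or the order of the K562 list, which has no value. The best region of a bound ZNF gene had a median position of 37.3% down the BCL11A list, against 42.2% for the other chromosome 19 genes (a lower percentage is stronger). In K562 the medians were 35.8% and 31.2%, and in 195C>G they were 31.7% and 29.1%. In WT the ZNF median was 25.6%, against 15.0% for the other genes. So the ZNF regions ranked lower than their counterparts mainly in WT, and 33 of the 115 WT-bound ZNF genes still had a region in the strongest 10% of the list, against 273 of 704 other genes.

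**Figure D1:**
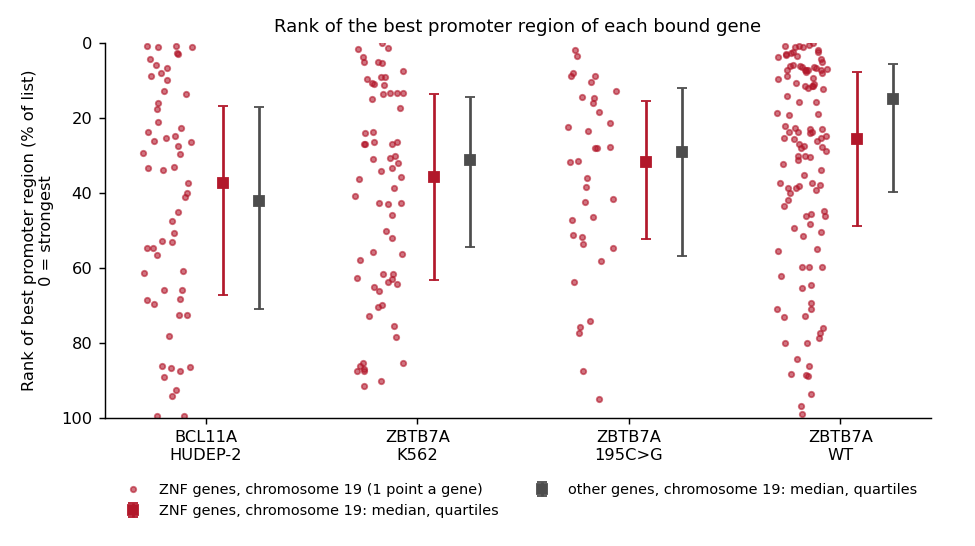
Rank of the best promoter region of each bound ZNF gene as a percentage of its list (y axis, 0 strongest and at the top), for the 4 lists (x axis). Each red point is 1 gene, and squares with lines are medians with quartiles for the ZNF genes (red) and the other chromosome 19 genes (grey). Red points fill the whole range in every list, and the medians lie furthest apart in WT (25.6 and 15.0%).

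The regions sat close to the transcript starts. Relative to the nearest start the centres had a median of 29 bp for BCL11A, 44 bp in K562, 19 bp in 195C>G and 83 bp in WT, positive values lying inside the gene. Within 250 bp of a start lay 43 of 59, 42 of 67, 23 of 36 and 78 of 115 of them. Few regions served several genes. In WT the 115 genes had 173 regions, of which 5 lay at the starts of more than 1 ZNF gene and 13 at the starts of more than 1 gene of any kind, and 54 genes had at least 2 regions.

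The strongest BCL11A promoter regions among these genes were at ZNF221 (rank 115, score 406, chr19:43950948-43951361) and ZNF57 (rank 119, score 399, chr19:2900384-2900825). ZNF146, whose protein consists almost wholly of zinc fingers, and ZNF565 shared a region at rank 147 with a score of 366. ZNF787 followed at rank 370 (score 220) and ZNF274 at rank 386 (score 215). ZNF274 encodes the protein known to bring SETDB1 to the 3′ exons of other ZNF genes. ZBTB7A regions at ZNF221, ZNF57 and ZNF274 were further down their lists or absent, and ZNF787 also had strong ZBTB7A regions in 195C>G and WT. ZNF146 and ZNF565 had a K562 region at rank 2330 (13.4% down the list), a WT region at rank 4187 (11.5%) and none in 195C>G. ZNF221 had a WT region at rank 9244 (25.4%) and none in K562 or 195C>G. ZNF57 had a K562 region at rank 5789 and none in 195C>G or WT. ZNF274 had a WT region at rank 10189 and no other.

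Apart from ZNF787, the leading ZNF promoters of ZBTB7A differed from those of BCL11A. ZNF787 was among the 5 best for BCL11A, in 195C>G and in WT. ZNF526 ranked 249 in K562, 380 in 195C>G (signal 139) and 62 in WT (signal 211), and it had no BCL11A region. ZNF180 ranked 887 in K562, 661 in 195C>G (signal 120) and 897 in WT (signal 107), with a BCL11A region at rank 9369. ZNF564 ranked 310 in K562, 5285 in 195C>G (signal 54) and 381 in WT (signal 138), with a BCL11A region at rank 3417. The lists differ in length. As a percentage of K562, 195C>G and WT, ZNF180 stood at 5.12, 3.52 and 2.46% and ZNF564 at 1.79, 28.1 and 1.05%. ZNF490 and ZNF791, neighbours on opposite strands, shared a region that ranked 4662 in K562, 1679 in 195C>G (signal 88.2) and 303 in WT (signal 145). ZNF555 ranked 684 in K562 and was bound in no other list. ZNF582, a gene often methylated in cervical cancer, had the best K562 rank of all ZNF genes (20) and a WT region at rank 398, and it had neither a BCL11A nor a 195C>G region.

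Promoters bound in all 4 lists were fewer among ZNF genes. 15 of the 247 (6.07%) had a region in all 4, against 180 of the 1141 other genes (15.8%), and 106 (42.9%) had none, against 381 (33.4%). The best sums of ranks belonged to ZNF529, ZNF564, ZNF780A, ZNF616 and ZNF180. ZNF529 ranked 4822 for BCL11A, 926 in K562, 1951 in 195C>G and 891 in WT. ZNF780A ranked 3569, 1971, 2741 and 1265 in the same order of lists, and ZNF616 ranked 5326, 1567, 3006 and 1868. As a percentage of each list, the BCL11A rank was the weakest for these 3 genes (37.3, 27.6 and 41.3%). The others bound in all 4 lists were ZNF358, ZNF700, ZNF566, ZNF420, ZNF575, ZNF224, ZNF580, ZNF787, ZNF8 and ZNF584.

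Genes bound in a single list were mostly WT ones. A region in WT alone was found for 38 ZNF genes, in the BCL11A list alone for 13, in K562 alone for 11 and in 195C>G alone for none. BCL11A and WT shared 44 ZNF genes, which are 74.6% of the BCL11A genes and 38.3% of the WT genes. Among the other chromosome 19 genes they shared 300, or 92.0% and 42.6%. K562 and WT shared 54 ZNF genes (80.6% of K562 and 47.0% of WT), against 436 other genes (92.0% and 61.9%). A BCL11A or K562 promoter was thus less often also a WT promoter at ZNF genes than at the other genes, a difference that has no test here. WT regions were less frequent at ZNF promoters in any case, at 46.6% of them against 61.7% of the other genes. The overlap shares alone therefore do not show less sharing at ZNF genes.

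The second comparison asked whether regions lay at the 3′ ends of the genes. The window around an end reaches beyond the gene and need not cover the finger-coding exons, so terminal exons are also given below. A gene counted as bound there when a region centre lay within 1 kb of an NM transcript end and not within 1 kb of any NM start. Hardly any ZNF gene met this. The counts were 3 of 247 for BCL11A, 1 in K562, 1 in 195C>G and 5 in WT. For BCL11A the share was 1.21% (0.251 to 3.51%), against 7.01% of the other chromosome 19 genes (5.60 to 8.65%) and 1.92% of all genes. In K562 it was 0.405% (0.0102 to 2.23%), against 7.80% (6.31 to 9.51%) and 2.2% of all genes. The single 195C>G gene gives the same 0.405%, against 7.27% (5.84 to 8.94%) and 2.37%. In WT it was 2.02% (0.660 to 4.66%), against 24.3% (21.8 to 26.9%) of the others and 5.13% of all genes. Set beside all genes rather than beside their gene-rich chromosome, the ZNF genes were lower by a smaller margin, and the BCL11A and K562 intervals included the value for all genes. ZNF genes of other chromosomes had 1.17%, 1.56%, 2.33% and 3.89% in the same order of lists. These shares were near that of chromosome 19 ZNF genes for BCL11A and above it in the other lists. They lay below the value for all genes in each list, in 195C>G only just (2.33 and 2.37%), and their intervals included that value in all 4 lists.

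ZNF653 alone had a 3′ region in all 4 lists. Its product is a zinc-finger repressor of the nuclear receptor SF-1. The gene runs on the minus strand at chr19:11483427-11505923. The 3′ regions were chr19:11482556-11482925 for BCL11A (rank 7940), chr19:11482438-11482927 in K562 (rank 16583), chr19:11482142-11482741 in 195C>G (rank 8997) and chr19:11482459-11483102 in WT (rank 6222). All 4 lay just beyond the annotated end, outside the transcript, and none stood in the strongest 10% of its list. The other 3′ regions were at ZNF628 and ZNF805 for BCL11A (ranks 8303 and 12192). In WT they were at ZNF524 (rank 12377), ZNF541 (23078), ZNF414 (27532) and ZNF579 (28869). ZNF541 encodes a chromatin protein needed for meiosis in mice and, unlike the other named genes of this paragraph, had no promoter region in any list.

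**Figure D2:**
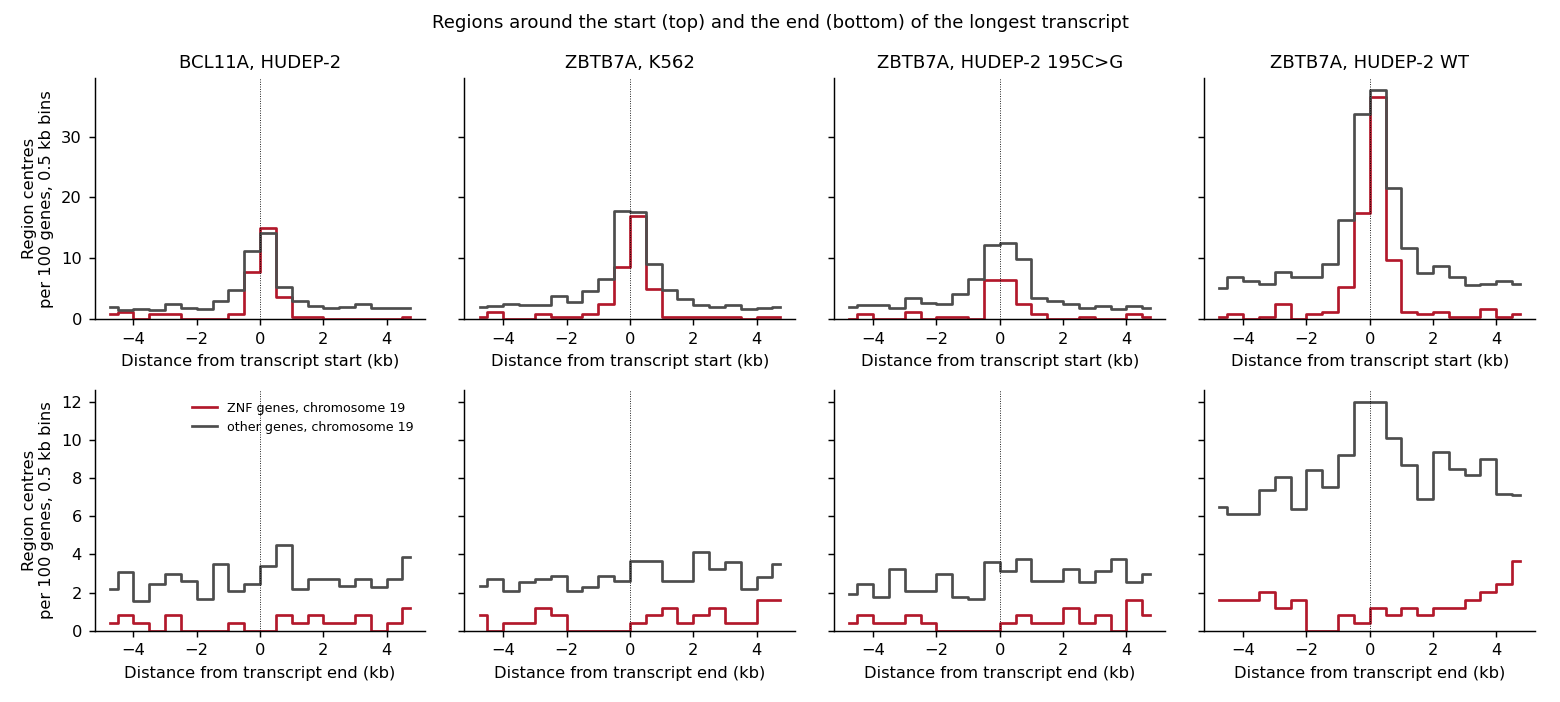
Region centres per 100 genes in bins of 0.5 kb (y axis) against distance from the start (top row) and end (bottom row) of the longest transcript in kb (x axis), for ZNF genes (red) and other genes (grey) of chromosome 19 in the 4 lists. In WT the first bin after the start holds 36.4 centres per 100 ZNF genes and 37.7 per 100 other genes, while the first bin after the end holds 1.21 and 12.

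The gene bodies gave the same picture. Outside promoter windows, a region lay in the body of 6 ZNF genes for BCL11A (2.43%, 0.897 to 5.21%), against 21.5% of the other chromosome 19 genes and 13.5% of all genes. In K562 there were 7 (2.83%, 1.15 to 5.75%), against 24.9% and 14.5%. In 195C>G there were 3 (1.21%, 0.251 to 3.51%), against 18.9% and 16.8%. In WT there were 18 (7.29%, 4.38 to 11.3%), against 47.2% and 26.2%. The ZNF shares lay below the shares of all genes and of the other chromosome 19 genes in each list, and no interval reached either. ZNF genes of other chromosomes were also below all genes, with 5.84, 9.73, 8.17 and 12.5% for BCL11A, K562, 195C>G and WT.

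ZNF genes were the longer ones, with a median of 20537 bp, against 11984 bp for the other genes. Their bodies, 5408 kb outside promoter windows, held 0.166 regions per 100 kb for BCL11A (0.0761 to 0.316), against 2.19 in the other genes. The densities were 0.166 and 2.36 in K562, 0.0555 and 1.99 in 195C>G, and 0.462 and 7.82 in WT. Terminal exons made up 15.1% of the ZNF bodies (815 kb) and held 1 BCL11A region, no K562 or 195C>G region and 3 WT regions. A count of 0 there allows up to 0.368 regions per 100 kb (3 counts). Terminal exons of the other genes held 65, 47, 57 and 217 regions in the same order of lists. Along the body from start to end, the 25 WT regions in ZNF genes were spread 8, 9, 4, 3 and 1 over successive steps of 20% of its length. In the other genes the last step was the fullest, with 468 of 1661 pairs of gene and region.

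The body regions lay mostly 1 to a gene, with 25 in 18 genes in WT, 9 in 6 for BCL11A, 9 in 7 in K562 and 3 in 3 in 195C>G. ZNF653 had the strongest one in WT (rank 680, signal 116, chr19:11496865-11497210) and in the BCL11A list (rank 2342, score 65.6), with 4 body regions in WT and 3 for BCL11A. ZNF564 had a body region near chr19:12544417-12544823 in K562 (rank 1772), in WT (rank 3759, signal 62.0) and for BCL11A (rank 8077), and none in 195C>G. ZNF611 had the best K562 body region (rank 1285) and a WT region at rank 19317. ZNF57 had a K562 body region at rank 3008. ZNF787 had body regions for BCL11A (rank 6384), in 195C>G (rank 14074) and in WT (rank 20580). In 195C>G the strongest body region of the 3 was that of ZNF816-ZNF321P, at rank 12031.

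The third comparison followed the clusters, taken as bins of 2 Mb from the start of the chromosome. The ZNF share varied widely from bin to bin. In the 14 bins with at least 5 ZNF genes and with other genes as well, it ran from 0 to 80% for BCL11A, from 15 to 80% in K562, from 0 to 71.4% in 195C>G and from 20 to 81.2% in WT. The ZNF share was below that of the neighbours in 6 of the 14 bins for BCL11A, 7 in K562, 7 in 195C>G and 5 in WT. It was above it in 8, 6, 6 and 9. Body shares, by contrast, were below the neighbours in 12, 14, 12 and 13 of the 14 bins.

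The comparison with neighbours was also made for the 218 ZNF genes in the 21 bins that hold both kinds, an alternative chosen after seeing the data. If each ZNF gene had been bound as often as the other genes of its bin, 53.0 would have been bound for BCL11A, and 58 were. The expectation was 72.5 in K562, where 66 were bound, and 41.0 in 195C>G, where 36 were. In WT it was 98.9, and 113 were bound. This changes the ZNF genes as well as their comparison, since the sparsely bound ZNF genes in bins without other genes drop out. The 218 genes had shares of 26.6, 30.3, 16.5 and 51.8%, against 24.3, 33.3, 18.8 and 45.4% expected from their neighbours. The full 247 genes had 23.9% for BCL11A, just under that expectation, and 46.6% in WT, just over it. The bin from 56 to 58 Mb weighed heavily. There 10 of 40 ZNF genes were bound for BCL11A and 22 in WT, against 1 of 16 other genes in each. Without that bin, the counts for BCL11A and WT would both lie below the expectation from neighbours. At 3′ ends the ZNF counts stayed lower, with 3 genes against 12 expected for BCL11A, 1 against 11.1 in K562, 1 against 8.34 in 195C>G and 5 against 36.0 in WT. In the bodies the counts were 6 against 33.9, 7 against 36.7, 3 against 24.3 and 18 against 65.8.

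The cluster from 20 to 24 Mb was almost empty. From 20 to 24 Mb lie 28 ZNF genes and no other protein-coding gene, and 1 of the 28 was bound for BCL11A, 1 in K562, none in 195C>G and 1 in WT. The exact upper limit for 0 of 28 genes is 12.3%, and the limit of 3 counts that a count of 0 allows is 10.7%. The stretch holds ZNF91, which represses SVA and L1 retrotransposons, and ZNF675, neither of which had a promoter region in any list. Its WT-bound gene was ZNF708, at rank 25902. ZNF93, a repressor of L1 elements that lies in the neighbouring bin, had a K562 region at rank 12626 and no other. From 52 to 54 Mb, 35 ZNF genes gave 1, 7, 2 and 10 bound genes in the BCL11A, K562, 195C>G and WT lists, against 1, 3, 2 and 3 of 12 other genes. The ZNF share was low for BCL11A and 195C>G (2.86 and 5.71%), while in K562 and WT (20 and 28.6%) it was near the 25% of the other genes. In that stretch ZNF616 had the best WT region (rank 1868).

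These 2 stretches were singled out after their values were seen. Without them, 57 of 184 ZNF genes were bound for BCL11A (31.0%, 24.4 to 38.2%), against 28.8% of the other genes. The shares were 32.1% and 41.7% in K562, 18.5% and 32.0% in 195C>G, and 56.5% and 62.1% in WT. The ZNF interval then included the share of the other genes for BCL11A and WT (49.0 to 63.8%) and lay below it in K562 (25.4 to 39.3%) and 195C>G (13.1 to 24.9%).

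In some other clusters larger shares were bound. These too were picked after their values were seen, and some hold few ZNF genes. From 56 to 58 Mb, where 40 ZNF genes lie, 22 were bound in WT (55.0%), against 1 of 16 other genes (6.25%). In the same bin 10 were bound for BCL11A, 6 in K562 and 3 in 195C>G, against 1, 1 and none of the 16. ZNF787 had the best WT region there (rank 214, signal 158). From 34 to 36 Mb, 4 of 5 ZNF genes were bound for BCL11A and 4 of 5 in WT, against 11 and 24 of 54 other genes. The interval for 4 of 5 is wide (28.4 to 99.5%). ZNF792 led WT there at rank 2693. From 44 to 46 Mb, 13 of 16 were bound in WT (81.2%), led by ZNF180, and 37 of 52 other genes (71.2%). From 54 to 56 Mb, 5 of 7 (29.0 to 96.3%) were bound in 195C>G and 5 of 7 in WT, against 15 and 25 of 85 other genes. There ZNF581 ranked 2396 in 195C>G (signal 76.8) and 2270 in WT (signal 76.8). From 58 to 60 Mb, 9 of 12 were bound in WT, with ZNF8 at rank 726, and 8 of 12 other genes. From 44 to 46 and from 58 to 60 Mb, both kinds of gene thus had high shares. In 5 bins the WT share of ZNF genes was below that of the neighbours, and in 9 above it. The 5 were 2 to 4 Mb (20 and 84.9%), 10 to 12 Mb (30 and 78.6%) and 12 to 14 Mb (37.5 and 88.1%). The others were 18 to 20 Mb (40 and 85.5%) and 36 to 38 Mb (50 and 58.8%). Elsewhere the best WT regions of a bin ranked 2311 for ZNF846 (8 to 10 Mb), 2609 for ZNF101 (18 to 20 Mb) and 5787 for ZNF473 (50 to 52 Mb), whose product acts in histone mRNA processing.

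The last comparison set 195C>G against WT at ZNF genes. Retention was read from overlap: a WT region was kept if it shared 1 bp or more with any 195C>G region, and the expected share was the mean for WT regions of the same 10% step of WT rank on all chromosomes. The 195C>G list is shorter (18784 regions, against 36435 in WT), each arm is 1 library and the depth of both is unknown. Of 173 WT regions at ZNF promoters of chromosome 19, 58 were kept in 195C>G (33.5%, 26.5 to 41.1%), against 62.0% expected. At the other promoters of the chromosome 603 of 1243 were kept (48.5%, 45.7 to 51.3%), against 66.2% expected. At ZNF promoters of other chromosomes 166 of 251 were kept (66.1%, 59.9 to 72.0%), against 61.6% expected. Chromosome 19 as a whole kept 40.0% of its 3988 WT regions, with 58.7% expected. The ZNF promoters of chromosome 19 differed from their expectation by -28.5 percentage points and the other promoters of the chromosome by -17.7. Of the 173 ZNF regions, 34 lay from 56 to 58 Mb and 16 from 58 to 60 Mb, where 6 and 2 were kept. Without these the ZNF gap would be nearer to that of the other promoters.

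The shortfall was present among strong regions. In the strongest 20% of the WT list 30 of 51 ZNF promoter regions were kept (58.8%, 44.2 to 72.4%), against 92.7% expected. The other chromosome 19 promoters kept 74.2% there and the ZNF promoters elsewhere 97.2%. In the next 20% the shares were 24.4%, 46.5% and 70.0%. In the weakest 20% the ZNF regions kept 19%, with 26.5% expected, and that interval (5.45 to 41.9%) included the expectation.

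Counted by gene, 36 ZNF promoters were bound in 195C>G and 115 in WT, and all 36 were among the 115 (31.3%, 23 to 40.6%). Of the other chromosome 19 genes bound in WT, 360 of 704 were bound in 195C>G (51.1%), and of the ZNF genes elsewhere 104 of 158 (65.8%). No ZNF gene of either set was bound in 195C>G alone. In the bodies 2 of 25 WT regions were kept (8.0%), against 44.8% expected, and 1 of 6 at the 3′ ends, that of ZNF653. The other chromosome 19 genes kept 31.8% in the bodies and 34.0% at the 3′ ends.

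Retention differed between clusters, although most bins hold few regions. From 56 to 58 Mb, 6 of 34 ZNF promoter regions were kept (17.6%, 6.76 to 34.5%), against 58.6% expected. From 58 to 60 Mb, 2 of 16 were kept (12.5%), against 72.7% expected. The other genes there also fell short, with 3 of 18 regions kept (16.7%), against 56.8% expected. From 54 to 56 Mb, 9 of 12 were kept (75%) and from 34 to 36 Mb 5 of 6 (83.3%), with 67.4% and 63.0% expected. The shares of these 4 bins thus ran from 12.5 to 83.3%.

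The strongest WT promoter regions without a 195C>G overlap were those of ZNF582 (rank 398, signal 136, chr19:56392967-56393410) and ZNF554 (rank 1105, signal 100, chr19:2819623-2820266). ZNF554 also had a K562 region at rank 895. ZNF627 followed at rank 2143, then ZNF557 (2473), ZNF324 (2695), ZNF329 (2922), ZNF446 (3212), ZNF524 (3416), ZNF549 (3558) and ZNF146 (4187). Of these 10 genes, ZNF524 had another, weaker 195C>G promoter region (rank 17829), and 8 had a K562 region. ZNF526 (195C>G rank 380, WT rank 62), ZNF180 and ZNF787 (195C>G rank 1515 with signal 91.8, WT rank 214 with signal 158) stood at the other extreme.

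The genes through which KRAB zinc-finger proteins repress were examined from a list of 27. Of these, 12 had a BCL11A promoter region, 15 a K562 region, 14 a 195C>G region and 21 a WT region, beside 24.6, 33.3, 29.5 and 45.3% of all genes. SETDB1 was bound in all 4 lists, at ranks 2886 for BCL11A, 1746 in K562, 1432 in 195C>G and 6239 in WT. TRIM28, the corepressor that KRAB domains bind, had regions in K562 (rank 12718 of 17331) and WT (rank 17789 of 36435) and none for BCL11A or in 195C>G. CBX3, which encodes a heterochromatin protein, was bound in all 4 lists and ranked 813 in K562. HDAC2, a histone deacetylase gene, ranked 2060 in K562, 636 in 195C>G (signal 122) and 358 in WT (signal 140), and had no BCL11A region.

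Promoter sequences from RefSeq matched 215 of the 247 genes. The ZNF windows of 300 bases had a median GC content of 60.0% and a median of 20 CpG dinucleotides, against 64.2% and 22 for the other matched chromosome 19 genes. Bound ZNF promoters were richer in CpG than unbound ones in each list. The medians were 23 and 20 for BCL11A, 23 and 19 in K562, 24 and 20 in 195C>G and 23 and 17 in WT. The 23 matched promoters from 20 to 24 Mb had a median of 10, while those from 52 to 54 Mb, sparsely bound for BCL11A and 195C>G, had 25. What part CpG content has in the shares was not tested. GACCC or GGGTC occurred in 58.1% of ZNF windows, in 60.7% of those of the other chromosome 19 genes and in 52.4% of all protein-coding windows. TGACCA or TGGTCA occurred in 6.05, 12 and 9.17%. The first motif was found in 71.4% of 195C>G-bound (25 of 35) and 55.6% of unbound ZNF promoters (100 of 180). In WT the shares were 61.3% and 55.0%, in K562 62.5% and 56.3%, and for BCL11A 64.2% and 56.2%, so the bound promoters held it more often in the BCL11A list as well. The second motif was found in 5 of 53 BCL11A-bound (9.43%) and 8 of 162 unbound ZNF promoters (4.94%). A motif match is a description of the window and not of a binding site.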

How the data were processed

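Peak lists of 16 ChIP-seq libraries were used (BCL11A, K562, 195C>G and WT, each with controls). Per the submitters' processing notes, the genome was GRCh38/hg38 and the tools were Trimmomatic 0.3.2, Bowtie2 2.2.9, Bowtie, Picard and bedtools. Per the file names, BCL11A and K562 regions are the optimal set of the irreproducible discovery rate over pooled replicates, and WT and 195C>G regions were called with SPP in 1 library each. The authors deposited a score per BCL11A region, and a signal and the −log10 of the false discovery rate per WT and 195C>G region. These are the authors' values, used only to rank regions within a list. The deposited K562 list has no value, so file order gave its rank, and the −log10 values were not used further.

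Identical regions were counted once, and coordinates are 1-based in hg38. Chromosome 11, of which a modified version was deposited, was left out of gene comparisons. Counts and intervals came from Python 3.11.15 with pandas 2.3.3, numpy 2.4.6 and scipy 1.17.1, after the counting was tested on simulated data. Depth is unknown. The members, gene lists and comparisons were chosen with earlier results of these data known. Named genes are the 5 best promoter, 5 best 3′ end and 3 best body regions a list, the 5 genes bound in all 4 lists with the best rank sums, the 10 best WT promoter regions without a 195C>G overlap, the best WT gene of each bin, and ZNF274, ZNF91, ZNF93, ZNF675, ZNF582 and ZNF554. The 27 genes of the KRAB pathway were listed from general knowledge. Protein sequences were not used here. Alternatives were the window size, terminal exons, the stronger 50% of each list, the overlap needed for retention and the choice of neighbours.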

Additional observations from a re-analysis of the deposited data

How the results depend on the processing

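No paired analysis was possible because each list pools its replicates or holds 1 library, so replicate numbers carry no values. No library could be left out for the same reason. Of 138 alternatives, 109 moved a ratio or retention value by at most 50% of the width of its counting interval, or a count by at most 1.5 times. A further 26 moved the value more, and 3 turned its direction. Comparisons are of the ZNF share over the share of other chromosome 19 genes unless stated otherwise. The ratio at promoters was 0.836 for BCL11A, 0.653 in K562, 0.458 in 195C>G and 0.755 in WT. For the 218 ZNF genes with other genes in their 2 Mb bin, set beside those genes, it became 1.09, 0.910, 0.877 and 1.14. BCL11A and WT thus reversed, which rested on the bin from 56 to 58 Mb. Both the ZNF genes and the comparison differ in this alternative, and all 247 had 23.9% for BCL11A, against the 24.3% expected from neighbours. Without 20 to 24 and 52 to 54 Mb it became 1.08 for BCL11A, a reversal, and 0.910 in WT. Both alternatives were chosen after seeing the data. With the stronger 50% of each list, 34 ZNF promoters were bound for BCL11A and 41 in K562.

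3′ end counts were small and moved easily. A 0.5 kb window gave 0 genes for BCL11A, K562 and 195C>G and 2 in WT, and terminal exons gave 1, 0, 0 and 3. A 2 kb window gave 2 in K562 and 2 in 195C>G. The stronger 50% gave 0 for BCL11A, 0 in K562 and 2 in WT. For bodies it gave 2 genes for BCL11A, 0 in 195C>G and 3 in WT, where the ratio was 0.0394 (0.154 as reported, 0.274 within bins). With the stronger 50% of the WT list, kept minus expected retention in 195C>G was -37.9 percentage points at promoters (-28.5 over all regions). In bodies the difference was -63.3 (-36.8 over all regions). The ratios at 3′ ends and in bodies stayed below 1 under every alternative run. The cause of these shifts was not tested. Depth is unknown, so a region missing from a list cannot be told from one below the calling threshold.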
